A study of Mus musculus with 40 samples.

Results

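Gene expression at 8 h was compared with that at 1 h in untreated mouse developing oligodendrocytes, the glial cells that go on to make myelin. The comparison used 4 bulk RNA sequencing libraries of untreated cells at 8 h and 4 at 1 h, chosen by their labels alone, out of 40 libraries in the series. All cells came from wild-type C57BL/6 pups labelled 6-7 days old, with no allele or agent in the untreated groups. Progenitors had been immunopanned from the cortices, although the tissue label reads whole brain. They were expanded in proliferation medium over 2 passages and left to differentiate for 12 to 14 h before plates were assigned at random to a group. Set against each other, the untreated plates at 1 h and 8 h give the earliest interval of the untreated culture. The other groups were untreated cells at 24 and 48 h, cells given interferon-gamma (IFN-gamma, a T cell cytokine) at 200 U/ml for 1, 8, 24 or 48 h, and cells given thapsigargin (a blocker of the endoplasmic reticulum calcium pump) at 200 uM for 1 or 8 h. Each held 4 libraries. The later untreated times and IFN-gamma at 1 and 8 h served as comparators, and all 10 groups entered the fit, which shares 1 estimate of each gene's spread.

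Between 13165483 and 22164537 reads per library fell on genes in these 8 libraries, and 15135 genes had enough reads to be tested. Levels are given as CPM, read counts scaled to the size of the library. CPM does not correct for gene length, so levels are compared between libraries and not between genes. Changes are log2 fold changes of 8 h over 1 h with their standard error (SE), from edgeR's quasi-likelihood test with 4 libraries per group. A gene was called, or is said to have risen or fallen, where that test's p, adjusted by Benjamini-Hochberg, was under 0.05. No 2 libraries of a group were alike within counting error, the lowest chi-square between them being 5.46 per degree of freedom. Whether replicates were separate cultures or animals is not in the labels. The p-values thus reflect only how far libraries of a group spread, pooled over all 10 groups, and that spread may be technical. Y-linked genes were detected in all 8 libraries at 103 to 235 CPM in sum. Xist was at 0 CPM in replicate 4 of both groups, 1.13 in replicate 2 of the 1 h group and 70.7 to 183 in the other 5. Xist thus differed widely between libraries of a group, and the part of sex in the results was not tested.

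The labelled cell type carried its markers. Olig1 averaged 1522 CPM at 1 h and 1206 at 8 h, Olig2 averaged 873 and 816, Sox10 averaged 563 and 589, and Pdgfra averaged 2338 and 2648. The markers of other cells named next ranged from near 0 to 9.15 CPM. Other members of the astrocyte and neuron lists were higher, as the sums below show. The microglial genes Tmem119, Aif1 and Cx3cr1 and the endothelial gene Cldn5 did not exceed 0.133 CPM in any library, and Pecam1 and Col1a1 stayed at or below 0.901 CPM. The neuronal gene Rbfox3 stayed at or below 1.17 CPM, while Snap25, also neuronal, lay at 6.48 to 7.75 CPM at 1 h and 5.68 to 7.07 at 8 h. Of the astrocyte genes, Gfap lay at 4.81 to 8.47 CPM at 1 h and 7.86 to 9.15 at 8 h, and Aqp4 at 1.08 to 3.58 and 1.64 to 4.66. Of the marker lists, 11 of 12 astrocyte, 3 of 14 microglial, 10 of 12 neuronal, 6 of 11 endothelial and mural, and 4 of 10 fibroblast genes passed the filter, and the neurofilament gene Nefl was the 1 called member. Summed levels were 441 to 507 CPM at 1 h and 454 to 552 at 8 h for astrocyte markers and 1169 to 1224 and 1217 to 1361 for neuron markers. They were 27.7 to 30.9 and 22.5 to 26.9 for microglial markers, 8.77 to 15.4 and 10.5 to 18.8 for fibroblast markers, and 569.7 to 610.1 and 615 to 672 for endothelial and mural markers, a list that includes the progenitor gene Cspg4. The part of other cells in the results was not tested. In bulk RNA, fewer cells of a type and less RNA per cell cannot be told apart.

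Libraries differed within both groups. By chi-square per degree of freedom, 8 h replicate 3 lay farthest from the others of its group (27.4, 43.8 and 29.5). At 1 h, replicates 1 and 2 lay at 25.5 to 52.1 from replicates 3 and 4. For some named genes another library stood apart. Replicate 4 at 8 h had the highest level of the group for the maturation genes Mbp (86.1 CPM, against 40.0 to 47.4 in the other 3) and Bcas1 (1433, against 944 to 948), and the lowest for Id2 (51.2, against 71.2 to 73.4). Where its removal changes how many members of a list were called, the count without it is given beside the list.

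As background, immediate early genes are transcribed within minutes of a stimulus such as growth factor or fresh medium, without new protein synthesis, through factors already bound at their promoters, and their unstable mRNAs decay when the stimulus ends. Cholesterol is made in the cell from acetyl-CoA through mevalonate and squalene, under the control of SREBP-2, a membrane-bound factor released when sterols are low. Oligodendrocytes need large amounts of it, since myelin is rich in cholesterol and sterol supply limits its growth.

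Between 1 h and 8 h, 14 of 25 tested immediate early transcription factors fell and 10 of 21 cholesterol synthesis genes rose, while 1 of 20 progenitor genes and none of 27 myelin genes passed the test. In untreated 8 h against untreated 1 h, of 15135 genes tested, 722 rose (4.77%) and 327 fell (2.16%), or 6.93% in all. Rises were mostly small. Their median log2 fold change was 0.37, and 104 of them reached 1.5-fold (0.687% of genes tested) and 14 reached 2-fold. Falls had a median of -0.45, and 125 reached 1.5-fold (0.826%) and 64 reached 2-fold. The median over all genes tested was -0.01. At an unadjusted p under 0.05, 3298 of the 15135 passed edgeR's test, and such counts for lists stand against that share. The libraries of the groups did not overlap for 639 of the genes that rose and 285 of those that fell, against 9% of all genes tested that lay higher without overlap and 8.57% that lay lower, or 17.6% in all. Without replicate 4 at 8 h, 417 genes rose and 121 fell. With library numbers 1 to 20 alone, 2 libraries per group, 86 rose and 39 fell, and with numbers 21 to 40 alone 145 rose and 37 fell. A fit of only these 8 libraries, with the spread estimated from them, called 1019 rises and 894 falls, of which 930 genes were also called above. Counts of list members from that fit stand against these totals, not against 4.77% and 2.16%.

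**Figure D1:**
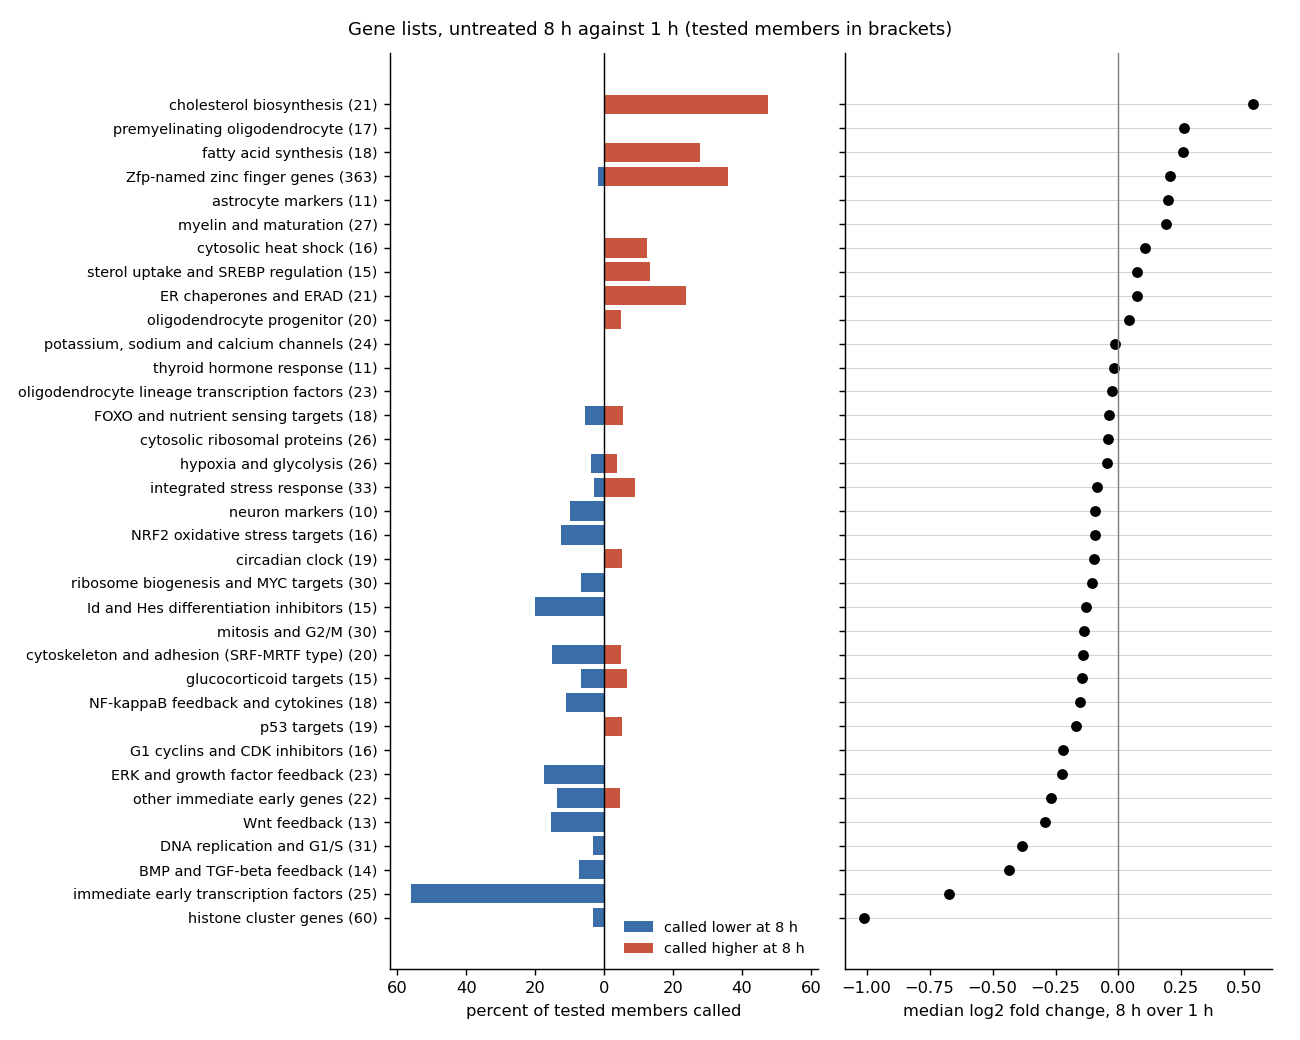
Gene lists with 10 or more tested members, ordered by median. The left panel shows the percent of tested members called lower (blue, to the left) and higher (red, to the right) at 8 h, and the right panel the median log2 fold change of 8 h over 1 h. Immediate early transcription factors have the largest share called lower (14 of 25) and cholesterol biosynthesis the largest share called higher (10 of 21).

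The promoters of 3 genes are shown because many members of their groups moved together and their own windows hold motifs known from textbooks. Not all members of a group hold them, and the control of these genes was not tested. The windows, from RefSeq on GRCm38.p6, lie within the 250 bases upstream of a transcript start, with bases annotated as exons in GENCODE M21 left out, and are written 5′ to 3′ on the gene's strand. The Egr2 window (chr10:67537316-67537565, plus strand, inside the annotated Egr2 gene but in none of its exons) has a CArG box, the motif bound by serum response factor, in capitals. In the Hmgcs1 window (chr13:119690101-119690350, plus strand, between genes) and the Mvk window (chr5:114444061-114444268, plus strand, between genes), capitals mark CCAAT, read as ATTGG on the opposite strand, which is bound by NF-Y, a partner of SREBP. In Hmgcs1 they also mark TCACNCCAC, a sterol regulatory element, which overlaps no CCAAT.
Egr2: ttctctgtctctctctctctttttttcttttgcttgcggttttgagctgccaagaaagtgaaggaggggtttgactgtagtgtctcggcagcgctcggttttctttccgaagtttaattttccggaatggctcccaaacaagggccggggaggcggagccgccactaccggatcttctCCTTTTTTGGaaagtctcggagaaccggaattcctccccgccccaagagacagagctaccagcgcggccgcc
Hmgcs1: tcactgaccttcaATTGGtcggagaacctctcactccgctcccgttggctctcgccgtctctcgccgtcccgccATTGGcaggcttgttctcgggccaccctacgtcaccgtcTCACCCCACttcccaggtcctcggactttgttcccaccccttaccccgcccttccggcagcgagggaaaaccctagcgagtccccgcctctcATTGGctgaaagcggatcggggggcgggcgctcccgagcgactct
Mvk: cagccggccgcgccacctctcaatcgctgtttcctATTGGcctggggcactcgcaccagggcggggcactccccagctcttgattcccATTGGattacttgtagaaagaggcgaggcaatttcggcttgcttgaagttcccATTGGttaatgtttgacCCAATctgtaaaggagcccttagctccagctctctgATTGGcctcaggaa
Motifs were searched on both strands, and the counts that follow use the full 250 bases, with exon bases kept. A CArG box was found in 5 of 19 windows, belonging to 2 genes, among the 12 of 14 fallen immediate early factors that the table lists, against 1.47% of 32851 windows of all genes. CCAAT was found in 8 of 11 windows and in each of the 8 listed of the 10 risen cholesterol genes, against 33.9% of all windows. TCACNCCAC was found in 1 of those 11 windows, against 1.05% of all. Egr2 alone has 5 listed windows. Windows of 1 gene can overlap, and a match is a description of letters, not of a bound site.

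Of 28 immediate early transcription factors, 25 were tested, 14 fell and none rose, against 2.16% of all genes falling. The median log2 change was -0.67, 23 of the 25 were below 0, and in 17 the libraries of the groups did not overlap (17.6% of all genes). Fosl1, Klf2 and Npas4 were under the filter. Without replicate 4 at 8 h, or without 1 h replicate 1, 10 fell. Each library range alone called 5 (numbers 1 to 20) and 4 (21 to 40) falls, with medians of -0.55 and -0.60.

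The AP-1 subunits are partners in a dimer that binds DNA. Junb, an AP-1 subunit, stood at 93.1, 78.6, 47.7 and 37.6 CPM in the 1 h replicates and at 19.9, 18.1, 17.9 and 14.0 at 8 h. The lowest 1 h library lay above the highest 8 h library, but the 1 h libraries spanned a wide range, high in replicates 1 and 2. Its log2 change was -1.88 (SE 0.32, adjusted p = 0.00023 by edgeR). Jun read 172, 185, 146 and 123 CPM at 1 h and 85, 78.8, 93.7 and 69.96 at 8 h, a log2 change of -0.94 (SE 0.16, adjusted p = 0.000291 by edgeR). Fos, the partner of Jun, was high at both times, at 146 to 186 CPM and 119 to 128 CPM, and fell by 0.40 on the log2 scale (SE 0.10). Fosl2 was tight at 1 h (13.9 to 15 CPM) and spread at 8 h (3.36 to 11 CPM), with a log2 change of -1.08 (SE 0.25). Jund fell from a mean of 49.9 to 25 CPM. Fosb, at 0.521 and 0.275 CPM, did not pass (adjusted p = 0.219 by edgeR).

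All 4 Egr genes, zinc finger factors induced by growth factor signalling, fell. Egr2, a factor best known for myelination by Schwann cells, read 32.5, 28.2, 37.1 and 31.7 CPM at 1 h and 10.5, 7.37, 13.3 and 7.42 at 8 h. Every 8 h library lay below every 1 h library by more than 2-fold, and the log2 change was -1.75 (SE 0.25, adjusted p = 2.21e-05 by edgeR). It was -1.77 in library numbers 1 to 20 and -1.72 in 21 to 40. Egr1 read 59.4, 46.5, 59.2 and 54.6 CPM at 1 h and 22.9, 16.4, 38.7 and 22.3 at 8 h. Replicate 3 was the high library at 8 h, and the log2 change was -1.14 (SE 0.34, adjusted p = 0.0325 by edgeR). Egr3 and Egr4 were scarce, at 2.03 and 1.39 CPM at 1 h and 0.609 and 0.195 at 8 h, with log2 changes of -1.79 (SE 0.33) and -2.70 (SE 0.50).

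Further factors of the list fell. Nr4a1, an orphan nuclear receptor, averaged 21.5 and 13.5 CPM (log2 change -0.67, SE 0.15), while Nr4a2 and Nr4a3 had log2 changes of -0.20 and -0.06 and did not pass. Klf4 averaged 17.1 and 8.44 CPM (-1.01, SE 0.27), Klf6 87.2 and 60.7 CPM (-0.52, SE 0.14), and Csrnp1 7.14 and 2.93 CPM (-1.26, SE 0.22). Srf itself, the factor that binds the CArG box, read 49 to 55.1 CPM at 1 h and 36.6 to 42.9 at 8 h, a small fall without overlap (-0.35, SE 0.06, adjusted p = 0.000318 by edgeR). Myc (119 and 112 CPM), Bhlhe40 (33.2 and 29 CPM) and Atf3 (1.12 and 0.492 CPM) did not pass. Klf11, a Krüppel-like repressor not on the list, was the fall with the smallest adjusted p of those named. It read 12.2, 14.2, 14.8 and 15.2 CPM at 1 h and 6.16, 6.53, 5.67 and 7.21 at 8 h, a log2 change of -1.14 (SE 0.12, adjusted p = 1.54e-07 by edgeR).

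**Figure D2:**
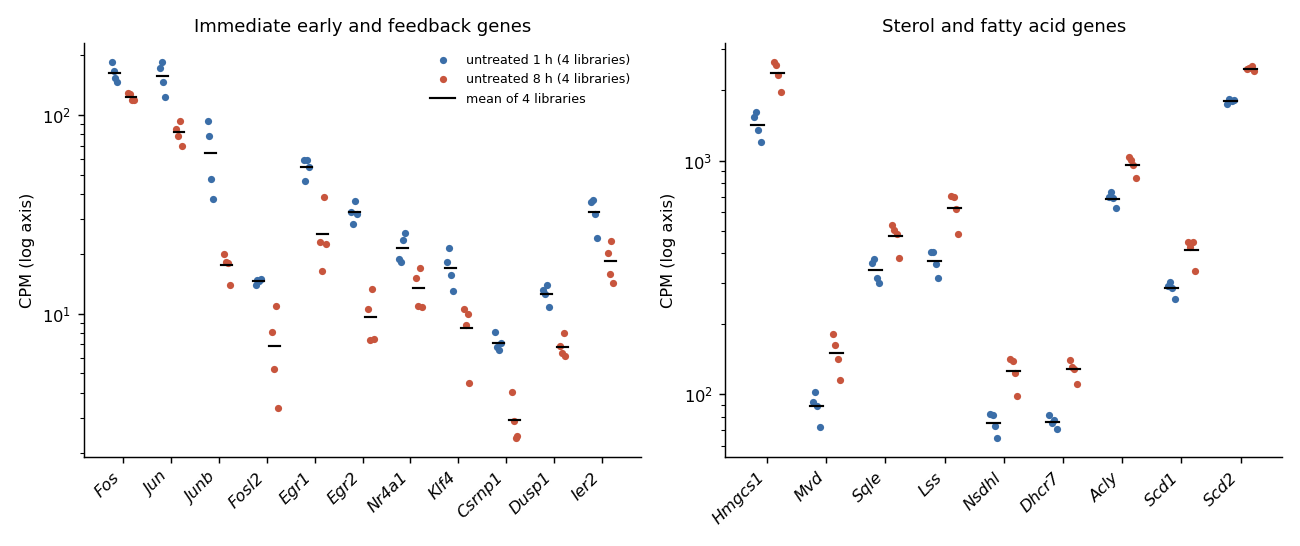
CPM on log axes of 11 immediate early and feedback genes (left) and 9 sterol and fatty acid genes (right) in the 4 untreated libraries at 1 h (blue) and 8 h (red), with the mean of the 4 as a black line. Junb falls from 37.6 to 93.1 CPM to 14.0 to 19.9 CPM, and Hmgcs1 rises from 1206 to 1617 CPM to 1967 to 2658 CPM, with no overlap between the groups.

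Genes that feed back on growth factor signalling were divided. Of 23 tested in the ERK and growth factor feedback list, 4 fell (2.16% of all genes) and none rose, with a median of -0.23. All 4 were dual-specificity phosphatases, which dephosphorylate MAP kinases. Dusp10, which acts mainly on p38 and JNK, read 46.7, 46.0, 48.7 and 51.1 CPM at 1 h and 26.7, 27.4, 28.9 and 21.8 at 8 h. The groups were tight and far apart, with a log2 change of -0.87 (SE 0.14, adjusted p = 0.00014 by edgeR). Dusp1 averaged 12.6 and 6.83 CPM (-0.89, SE 0.21), Dusp5 3.63 and 2.11 CPM (-0.77, SE 0.18) and Dusp2 1.55 and 0.472 CPM (-1.72, SE 0.33). The ERK targets Dusp6 (143 and 146 CPM), Spry4 (111 and 112 CPM), Etv5 (281 and 289.5 CPM) and Spry2 (179 and 172 CPM) had log2 changes between -0.05 and 0.05 and did not pass. Ccnd1, the growth factor-responsive D cyclin, read 1382 to 1541 CPM at 1 h and 902 to 1429 at 8 h (-0.36, SE 0.25, adjusted p = 0.42 by edgeR).

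Of 22 other immediate early genes, 3 fell and 1 rose, against 2.16% and 4.77% of all genes, with a median of -0.27. Without replicate 4 at 8 h, 2 fell. Gadd45b averaged 3.33 and 1.49 CPM, Gadd45g 62 and 31.3 CPM and Ier2 32.3 and 18.4 CPM, and their log2 changes were -1.17 (SE 0.25), -0.98 (SE 0.22) and -0.82 (SE 0.24). Gadd45 proteins are stress sensors that bind MAP3K4. Rgs2, a brake on G protein signalling, moved the other way, from 10.7 to 12.7 CPM at 1 h to 15.5 to 16.5 at 8 h (0.45, SE 0.10, adjusted p = 0.0036 by edgeR).

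Of 18 tested NF-kappaB feedback and cytokine genes 2 fell, against 2.16% of all genes, with a median of -0.15. Socs3, an inhibitor of JAK-STAT signalling, read 426, 391, 245 and 239 CPM at 1 h and 169.7, 181, 125 and 141 at 8 h, a log2 change of -1.08 (SE 0.16, adjusted p = 3.15e-05 by edgeR). Replicates 1 and 2 were higher than 3 and 4 at both times, and the change was -1.23 in library numbers 1 to 20 and -0.85 in 21 to 40. Tnfaip3, the A20 deubiquitinase, averaged 9.88 and 4.51 CPM (-1.14, SE 0.22). The others of the 12 largest falls, besides genes of the lists above, were Gpr157, an orphan receptor (-1.30, SE 0.27), Slc16a6, of the monocarboxylate transporter family (-1.25, SE 0.21), and Pcdh8, a protocadherin (-1.08, SE 0.19).

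Most cholesterol synthesis genes had a positive change, though not all were called. Of 21 genes, all tested, 10 rose and none fell, against 4.77% of all genes rising, and the median log2 change was 0.53. Only Tm7sf2 was below 0 (-0.06), and in 11 the libraries did not overlap (17.6% of all genes). Leaving out replicate 4 at 8 h, the lowest 8 h library for each cholesterol gene given here, 13 rose, with a median of 0.64. Leaving out 1 h replicate 4, or 8 h replicate 1 or 2, 6 rose, with medians of 0.46 to 0.51. Library numbers 1 to 20 called 2 and numbers 21 to 40 called 3, with medians of 0.54 and 0.56.

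In the mevalonate steps, Hmgcs1, which makes HMG-CoA, read 1530.5, 1617, 1354 and 1206 CPM at 1 h and 2658, 2578, 2316 and 1967 at 8 h. The groups did not overlap, and the log2 change was 0.74 (SE 0.17, adjusted p = 0.00634 by edgeR). Mvk and Pmvk, kinases of later steps, had log2 changes of 0.53 (SE 0.16) and 0.46 (SE 0.12), and both rose. Mvd, the decarboxylase that closes this stage, read 92.2, 102, 88.8 and 72 CPM at 1 h and 181, 162, 141 and 115 at 8 h (0.75, SE 0.18, adjusted p = 0.00679 by edgeR). Idi1 (0.62, SE 0.21) and Fdps (0.46, SE 0.19), which make the isoprenoid chains, did not pass.

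In the sterol branch, Fdft1, squalene synthase, averaged 207 and 326 CPM (0.66, SE 0.17). Sqle, which oxidises squalene, read 364, 379, 314 and 298 CPM at 1 h and 527, 506, 484 and 381 at 8 h (0.49, SE 0.14, adjusted p = 0.0325 by edgeR). Lss, which closes the sterol rings, had the largest change of the list, from 405, 404, 361 and 314 CPM to 707, 701, 622 and 483 (0.76, SE 0.19, adjusted p = 0.00959 by edgeR). Of the later enzymes, Nsdhl (0.73, SE 0.16), Sc5d (0.54, SE 0.16) and Dhcr7 rose. Dhcr7, which makes cholesterol from its last precursor, had the smallest p, at 81.2, 74.8, 77.4 and 70.6 CPM against 139.8, 131, 128 and 110.3 (0.74, SE 0.11, adjusted p = 3.95e-05 by edgeR). It was called in each library range alone, at 0.79 and 0.70. Cyp51 (0.54), Msmo1 (0.62) and Hsd17b7 (0.42) did not pass.

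Genes of sterol uptake and SREBP control moved less as a list, with 2 rises in 15 tested genes (4.77% of all genes) and a median of 0.07. Stard4, a sterol carrier, averaged 70.9 and 111 CPM (0.64, SE 0.17) and Insig2, which holds SREBP in the endoplasmic reticulum, 11.2 and 15.6 CPM (0.47, SE 0.12). Insig1 (326 and 367 CPM), Srebf2 (216 and 229.7 CPM) and Srebf1 (56.4 and 50.6 CPM) did not pass. None of 9 tested LXR targets and sterol export genes was called by edgeR (1 at an unadjusted p under 0.05, none by DESeq2), with a median of -0.03, and Abca1, the cholesterol exporter, ranged from 1.30 to 6.71 CPM within the 8 h group. The fit of only these 8 libraries called 1 of 7 genes of this LXR list higher.

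Of 18 tested fatty acid synthesis genes, 5 rose (4.77% of all genes) and none fell, with a median of 0.26, and leaving out 1 library gave 3 to 5 rises. Scd2, a stearoyl-CoA desaturase, read 1740 to 1838 CPM at 1 h and 2411 to 2544 at 8 h (0.46, SE 0.11, adjusted p = 0.00488 by edgeR). Acly, which supplies cytosolic acetyl-CoA to both pathways, averaged 688 and 960.2 CPM (0.48, SE 0.09, adjusted p = 0.000483 by edgeR). Scd1 (0.55, SE 0.14), Fads2 (0.25, SE 0.07) and Pnpla3 (0.78, SE 0.23) also rose. Fasn (1051 and 1251 CPM) and Acaca (205 and 222 CPM), the chain-building enzymes, did not pass.

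The 12 largest rises among called genes without overlap were of low to moderate level. Slitrk6, a neuronal-type transmembrane protein, read 8.59, 7.38, 8.05 and 8.90 CPM at 1 h and 14.8, 16.7, 15 and 28.1 at 8 h, with replicate 4 high (1.17, SE 0.31, adjusted p = 0.0148 by edgeR). Stat2, a transducer of type I interferon signals, was tighter, at 13.8, 13.4, 12.5 and 12.5 CPM and 23.8, 25.3, 24.3 and 25 (0.91, SE 0.14, adjusted p = 7.91e-05 by edgeR). Gpc2, a glypican, averaged 5.15 and 10.5 CPM (1.03, SE 0.18), and Dnajc28, a J-domain protein, 3.54 and 7.22 CPM (1.02, SE 0.17). The others were Gramd2, Gm14399, Zswim3, Slc25a35, Gm12258, Gm47204, Letm2 and Zfp108, with log2 changes of 0.84 to 1.08.

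The genes that rose included many zinc finger genes, a group noticed after the values were seen. Of 410 genes whose symbol is Zfp and a number, 363 were tested, 130 rose and 6 fell, against 4.77 and 2.16% of all genes. Their median was 0.20, and 294 were above 0. Most such proteins bind DNA, and many carry a KRAB domain that recruits a silencing complex. Zfp329 averaged 47.9 CPM at 1 h and 79 at 8 h (0.72, SE 0.08, adjusted p = 1.97e-07 by edgeR), Zfp128 12.9 and 22.8 CPM (0.82, SE 0.09) and Zfp658 11.6 and 20.01 CPM (0.79, SE 0.08), all 3 chosen by p. The 6 that fell were Zfp36l2, an RNA-binding protein rather than a DNA-binding one, Zfp423, Zfp503, Zfp628, Zfp91 and Zfp941, with log2 changes of -0.19 to -0.80. Without replicate 4 at 8 h, 94 rose. The transcripts of the 130 had a median GC content of 41.7%, against 44.3% over all 363 Zfp-named genes tested. It was 49.5% over all genes tested and 47.9% for the other 592 genes that rose. The part of GC content in the result was not tested. Zinc finger genes have many near-identical copies and the handling of reads shared by copies is not given, so single members are uncertain.

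**Figure D3:**
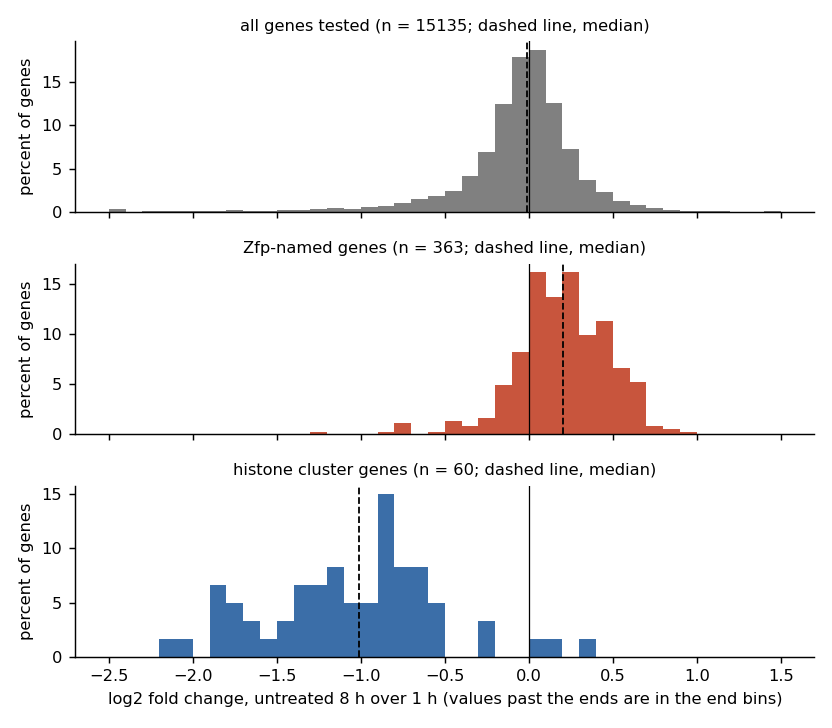
Percent of genes by log2 fold change of 8 h over 1 h, in bins of 0.1, for all 15135 genes tested (top), 363 Zfp-named genes (middle) and 60 histone cluster genes (bottom), with the median dashed. The Zfp-named genes centre on 0.20 and the histone genes on -1.01, while all genes centre on -0.01.

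Maturation genes were not called in the fit of all groups. None of 27 tested myelin and maturation genes and none of 17 premyelinating genes passed, with medians of 0.19 and 0.26 (without replicate 4 at 8 h, 0.06 and 0.10). By edgeR at an unadjusted p under 0.05 the counts were 1 and 2, against 3298 of all 15135 genes. DESeq2 called none of either list. The fit of only these 8 libraries called 1 of 24 myelin and maturation genes lower. Mbp, myelin basic protein, read 50.2, 27, 46.7 and 62.7 CPM at 1 h and 41.3, 40.0, 47.4 and 86.1 at 8 h. The groups overlapped, with a log2 change of 0.20 (SE 0.58) that became -0.12 without replicate 4 at 8 h. Myrf, the factor that switches on myelin genes, averaged 45.6 and 68.1 CPM (0.58, SE 0.30), and Enpp6, a marker of newly forming oligodendrocytes, 15.7 and 24.1 CPM (0.61, SE 0.64). Gpr17, a receptor that marks committed precursors, read 454, 413, 507 and 681 CPM and 738, 863, 680.4 and 1499, with 1 of the 8 h libraries level with the highest at 1 h (0.88, SE 0.35, adjusted p = 0.126 by edgeR).

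Progenitor and lineage genes had medians near 0. Of 20 progenitor genes 1 rose (4.77% of all genes), with a median of 0.04. None of 23 lineage transcription factors was called by edgeR (3 at an unadjusted p under 0.05, none by DESeq2), with a median of -0.03. The fit of only these 8 libraries called 4 progenitor genes higher, and 1 lineage factor higher and 3 lower. Tmem100, the 1 called in the fit of all groups, read 18.1 to 19.4 CPM at 1 h and 21.4 to 26.8 at 8 h (0.38, SE 0.11). Its list had no call without 8 h replicate 4 or 2 or without 1 h replicate 1 or 3. Pdgfra, the receptor for the progenitor mitogen PDGF, read 2257 to 2416 CPM and 2601 to 2717, without overlap, but with an SE of 0.17 over all groups its log2 change of 0.18 did not pass. Of 15 tested Id and Hes inhibitors of differentiation 3 fell, against 2.16% of all genes, with a median of -0.13 (2 fell without replicate 4 at 8 h). Hes1, a Notch target and repressor of neural differentiation, read 8.29, 8.20, 10.7 and 8.00 CPM and 4.71, 4.17, 4.05 and 3.85 (-1.06, SE 0.17, adjusted p = 0.000131 by edgeR). Id2, which sequesters bHLH factors, read 122, 112, 108 and 100.1 CPM and 72.1, 73.4, 71.2 and 51.2 (-0.72, SE 0.14, adjusted p = 0.00142 by edgeR). Lfng, a glycosyltransferase that modifies Notch, averaged 11.1 and 6.77 CPM (-0.71, SE 0.22), and Id3 read 16.3 to 18.5 CPM and 7.88 to 13.9 without passing (-0.57, SE 0.25). Of BMP and TGF-beta feedback genes 1 of 14 fell (Bambi, a decoy receptor, -0.53, SE 0.16, with a list median of -0.44), against 2.16% of all genes. Against the same share, 2 of 13 Wnt feedback genes fell (Nkd2, -0.67, and Znrf3, -0.34, with a list median of -0.29). Neither list had a call without replicate 4 at 8 h, and leaving out any 1 library gave 0 to 3 BMP falls and 0 to 2 Wnt falls, with no Wnt call in 6 of the 8 cases.

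Cell cycle genes lay lower at 8 h, but their call depended on the libraries in the fit. All 31 DNA replication genes had a log2 change below 0, with a median of -0.38. In 24 the libraries did not overlap (8.57% of all genes lay lower without overlap). Yet 1 fell by the test, against 2.16% of all genes. Leaving out 1 library gave 2 falls without 8 h replicate 3 and none in the other 7 cases. The fit of only these 8 libraries called 29 of the 31 lower, with the spread estimated from these libraries alone. That fit also called more falls over all genes, as given above. Pcna, the replication clamp, averaged 421 and 306 CPM (-0.46, SE 0.18), Mcm6, a helicase subunit, 339 and 243 CPM (-0.48, SE 0.21) and Cdt1, a licensing factor, 69.5 and 41.8 CPM (-0.73, SE 0.25), none called. None of 30 mitosis genes was called by edgeR, none at an unadjusted p under 0.05 and none by DESeq2 (12 in the fit of the 8 libraries), with a median of -0.14, and Mki67 overlapped, at 714 to 859 and 644 to 815 CPM. None of 16 G1 cyclin and CDK inhibitor genes passed (median -0.22), and DESeq2 called none. At an unadjusted p under 0.05 by edgeR 3 did, against 3298 of all 15135 genes. The fit of the 8 libraries called 4 of 15 lower.

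Histone cluster genes, also grouped after the values were seen, had the lowest median. Of 68, 60 were tested, with a median of -1.01, and 57 of these were below 0. In 46 the libraries did not overlap (17.6% of all genes). By the test only 2 fell, against 2.16% of all genes. The fit of only these 8 libraries called 52 of 56 lower and 1 higher, the fit with the range of library numbers as a block called 10 lower, and leaving out 1 library gave 6 falls (without 1 h replicate 4), 3 (without 8 h replicate 1) or none. Replication-dependent histone genes are transcribed in S phase and their mRNAs end in a stem-loop rather than a poly(A) tail. Hist1h4d averaged 908 and 497 CPM (-0.87, SE 0.27) and Hist1h1e 898 and 487 CPM (-0.88, SE 0.27). Their sum over the group was 15461, 15518, 11051.5 and 8707 CPM at 1 h and 7953, 6305, 6448 and 4844 at 8 h, higher at 1 h in replicates 1 and 2, of library numbers 1 to 20, than in 3 and 4, of numbers 21 to 40. Gm26917, a transcript with ribosomal RNA sequence, also lay lower at 8 h, at 9117, 10379.6, 5925 and 5164 CPM and 4449, 3442, 5088 and 2618 (-0.97, SE 0.40, adjusted p = 0.144 by edgeR). Whether capture of transcripts without a tail differed between libraries was not tested, and copies of histone genes can share reads.

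Among stress and housekeeping lists, 5 of 21 tested ER chaperone and ERAD genes rose (4.77% of all genes) and none fell, with a list median of 0.07. The 5 that rose had log2 changes of 0.21 to 0.33. Xbp1, a factor of the unfolded protein response, read 62.8, 59.99, 62.6 and 58.2 CPM and 79.3, 80.3, 72.6 and 73.4 (0.33, SE 0.08, adjusted p = 0.0133 by edgeR), and Pdia4, a disulfide isomerase, averaged 203 and 239 CPM. Hsp90b1, Sel1l and Selenok were the other 3. Leaving out 1 h replicate 1 or 8 h replicate 4, 2 rose. DESeq2, the fit of the 8 libraries, and the fits without 1 h replicate 4 or 8 h replicate 1 each called 1 lower. Each library range alone called none. Hspa8, the constitutive cytosolic chaperone, averaged 2232 and 2753 CPM (0.30, SE 0.07). Of 16 heat shock genes 2 rose, against 4.77% of all genes (median 0.10, and 1 rose without replicate 4 at 8 h). Of 33 integrated stress response genes, 3 rose and 1 fell, against 4.77% and 2.16% of all genes (median -0.08). The rises were of Cebpg, a bZIP factor (0.47, SE 0.07, adjusted p = 1.53e-05 by edgeR), Aldh1l2 (0.26) and Ddit4 (0.39). The fall was of the phosphatase subunit Ppp1r15a (-0.51, SE 0.10). Without replicate 4 at 8 h, 1 rose and 1 fell. Trib3 averaged 2.18 and 0.920 CPM and did not pass (-1.22, SE 0.42, adjusted p = 0.0701 by edgeR).

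The remaining lists had few calls. Their counts stand against 4.77% of all genes rising and 2.16% falling, and several lie near those shares. Of 16 NRF2 targets 2 fell (Gsr, -0.37, and Gclc, -0.24, both for glutathione), and of 30 ribosome biogenesis genes 2 fell (Noc2l, -0.29, and Odc1, -0.39), with list medians of -0.09 and -0.11. Of 20 cytoskeleton and adhesion genes of the SRF-MRTF type 3 fell (Thbs1, Cnn2 and Zyx) and 1 rose (Cald1), with a median of -0.14. Of 26 hypoxia and glycolysis genes 1 fell and 1 rose (Pfkfb3, -0.40, and Pfkfb4, 0.41), of 18 FOXO and nutrient sensing genes 1 fell and 1 rose (Bcl6, -0.66, and Sesn1, 0.31), and of 15 glucocorticoid targets 1 fell and 1 rose (Dusp1 and Ddit4), with medians of -0.05, -0.04 and -0.14. Of 19 clock genes 1 rose (Per3, 0.42) and of 19 p53 targets 1 rose (Sesn1), with medians of -0.10 and -0.17. Without replicate 4 at 8 h, no NRF2, ribosome biogenesis, cytoskeleton, clock or p53 list member was called, nor the FOXO and glucocorticoid rises. Leaving out 1 library gave 0 to 2 cytoskeleton falls. None of 26 ribosomal protein genes, 24 channel genes and 11 thyroid hormone response genes was called by edgeR, with medians of -0.04, -0.01 and -0.02. At an unadjusted p under 0.05 the counts were 1, 2 and 1, against 3298 of all 15135 genes. DESeq2 called 1 channel gene and none of the others. The fit of only these 8 libraries called 1 ribosomal protein gene lower.

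Levels at the later untreated times place these genes in the course of culture, as means over 4 libraries with no test, since the times share the 1 h libraries. Junb went from 64.2 (SD 26) and 17.5 (SD 2.50) CPM at 1 and 8 h to 12.8 (SD 2.82) at 24 h and 11.1 (SD 3.09) at 48 h. Egr2 stood at 4.52 (SD 0.994) and 1.71 (SD 0.414) CPM at 24 and 48 h, and Klf4 at 2.48 and 0.471. The order for these 3 was the same at each step, highest at 1 h and lowest at 48 h. Sterol genes were not ordered by time. Dhcr7 stood at 76, 127, 74.9 and 99.8 CPM and Hmgcs1 at 1427, 2379, 1708 and 2558 CPM at 1, 8, 24 and 48 h. The median member of the cholesterol list lay 0.51, -0.05 and 0.39 above its 1 h level at 8, 24 and 48 h, as differences of the mean log2(CPM + 0.5). Enpp6 stood at 145 (SD 142) and 893 (SD 441) CPM and Mbp at 157 (SD 112) and 1802 (SD 1115) CPM at 24 and 48 h, with libraries of a group far apart.

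**Figure D4:**
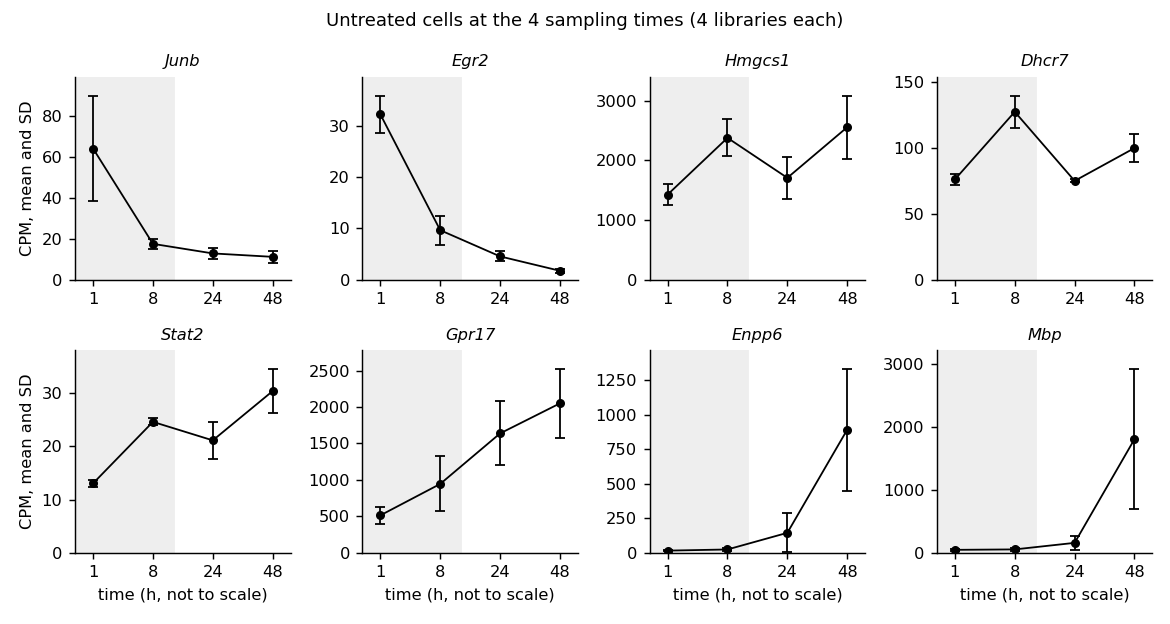
Mean CPM of 8 genes in untreated cells at 1, 8, 24 and 48 h (4 libraries each, bars show the SD, each panel has its own axis from 0, and the 1 and 8 h points are shaded). Junb and Egr2 drop before 24 h, Dhcr7 peaks at 8 h with 127 CPM, and Mbp is highest at 48 h.

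The interval from 24 to 48 h shares no library with the first. There 21.9% of genes rose and 18.7% fell, or 40.7% in all. Of the 722 genes that rose from 1 to 8 h, 217 rose again and 28 fell, and of the 327 that fell, 83 fell again and 27 rose.

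The same 1 to 8 h interval in IFN-gamma cells uses other libraries, so it shows which of these changes were also seen under the cytokine. There 2665 genes rose (17.6%) and 2571 fell (17%), or 34.6% in all. Of the 722 genes that rose in untreated cells, 678 also had a positive change (93.9%, against 47.0% of all genes), and 480 were called higher, which is 66.5% of the 722 and 18% of the IFN-gamma rises. Of the 327 that fell, 281 had a negative change (85.9%, against 53% of all genes), and 194 were called lower, 59.3% of the 327 and 7.55% of the IFN-gamma falls. Another 8 of the 722 and 21 of the 327 were called in the opposite direction. The difference between the changes was tested as an interaction, which called 12.4% of all genes (7.39% with the IFN-gamma change the higher and 4.99% with it the lower), 93 of the 722 and 51 of the 327.

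Cholesterol genes changed in both. In the IFN-gamma series 16 of 21 rose, and Hmgcs1 went from 1482 (SD 353) to 2306 (SD 255) CPM (log2 change 0.64, SE 0.17), with a difference from the untreated change of -0.10 (SE 0.24, adjusted p = 0.869 by edgeR). Dhcr7 changed by 0.52 (SE 0.11), with a difference of -0.22 (SE 0.16, adjusted p = 0.437 by edgeR). Of the 130 Zfp-named genes that rose, 94 rose under IFN-gamma and none fell, and the interaction called 13. Junb changed by -1.61 (SE 0.32), with a difference of 0.26 (SE 0.44, adjusted p = 0.795 by edgeR), and Dusp1 by -0.82 (SE 0.21).

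The changes of several named genes differed. Jun fell in untreated cells but rose under IFN-gamma, from 203 (SD 42.5) to 413 (SD 42.9) CPM, and the difference of the log2 changes was 1.96 (SE 0.23, adjusted p = 4.89e-08 by edgeR). Tnfaip3 rose there from 9.06 to 29.8 CPM (difference 2.86, SE 0.30) and Dusp10 from 42.8 to 69.6 CPM (difference 1.57, SE 0.20). Pcdh8 fell further, from 12.3 to 1.23 CPM (difference -2.23, SE 0.31). Gpr17 fell from 442 to 232 CPM under IFN-gamma, with a difference of -1.81 (SE 0.49, adjusted p = 0.0101 by edgeR), and Pdgfra fell from 2435 to 1441 CPM (difference -0.94, SE 0.24). Id2, which fell in untreated cells, changed by 0.05 under IFN-gamma (difference 0.77, SE 0.20). Of the 25 immediate early factors, 5 rose and 10 fell in the IFN-gamma series, against 17.6% and 17% of all genes.

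**Figure D5:**
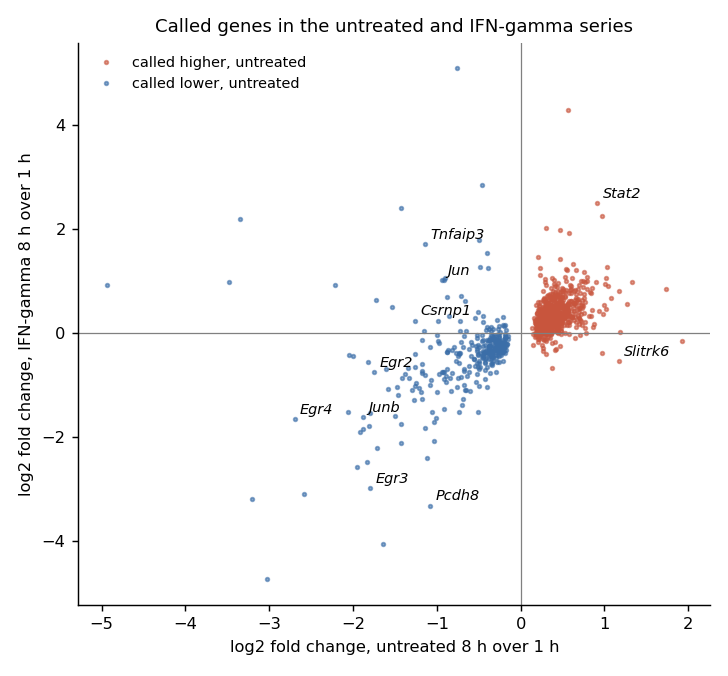
Log2 fold change of 8 h over 1 h in untreated cells (horizontal) and in IFN-gamma cells (vertical) for the 722 genes called higher (red) and 327 called lower (blue) in untreated cells, 1 point per gene. Most points lie in the lower left and upper right, while Jun and Tnfaip3 lie in the upper left.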

How the data were processed

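Libraries were grouped by their labels. Per the submitters' processing notes STAR, featureCounts, kallisto and edgeR were used, without versions or roles. The genome build, annotation, strand setting and treatment of shared reads were not given in the sources used here. The deposited gene table holds raw counts for 39056 identifiers, and 38872 could be given a symbol. A deposited table of isoforms gives estimated counts, summed per gene and rounded for 1 alternative.

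Counts of all 40 libraries in 10 groups were fitted with edgeR 4.0.16 (R 4.3.3, limma 3.58.1) by quasi-likelihood with TMM scaling after filterByExpr, with 30 residual degrees of freedom and a prior count of 0.125 for fold changes. DESeq2 1.42.0, RLE scaling, no filter, other sets of libraries, a 1.5-fold minimum and leaving out each library were alternatives. On simulated data with 200 changed genes of 14956, the fit of untreated 8 h against 1 h recovered 73.1% at 1.5-fold, 91% at 2-fold and 98.5% at 4-fold, and 4.37% of calls were false. Simulated counts were drawn independently with the spread of the fit, and changes were placed only in genes above a read minimum. They hold no shift that many genes of a library share, so these rates may not carry over to the real libraries.

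Genes were named if among the 12 largest rises or 12 largest falls of called genes whose groups did not overlap (mean log2 CPM 1 or more), if among up to 5 called members of each list by p, or if in a set given whatever their values. Other members were added after their values were seen, to describe their pathway. A few genes are counted in their lists but not reported here by name. The members and lists were chosen with earlier results of these data known. Depth ran from 13165483 to 22164537 counts.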

Additional observations from a re-analysis of the deposited data

Results flagged for a closer look

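Among the named genes, 194 groups of 4 libraries were examined for a library far from its group, and 14 had one, while chance flags about 1 in 20. Of these, 8 were replicate 4 at 8 h. It was high for Slitrk6 (28.1 CPM), Sel1l (195), Abca1 (6.71), Bcas1 (1433), Mbp (86.1) and Sox10 (664), and low for Gm47204 (2.71) and Id2 (51.2). At 1 h, replicate 4 was high for Zfp108 (6.25 CPM) and low for Dusp2 (1.08), replicate 3 was high for Hes1 (10.7), replicate 2 was low for Noc2l (136), and replicate 1 was low for Pdia4 (195). At 8 h, replicate 1 was high for Dusp5 (2.75 CPM).

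The 1 h to 8 h change differed between IFN-gamma and untreated cells, by the interaction test in edgeR, for 19 named genes. The IFN-gamma change minus the untreated change, on the log2 scale, was above 0 for Tnfaip3 (2.86), Jun (1.96), Id3 (1.64), Stat2 (1.59), Dusp10 (1.57), Csrnp1 (1.51), Lfng (1.42), Bcl6 (1.28), Egr2 (1.01), Id2 (0.77) and Ddit4 (0.63). It was below 0 for Pcdh8 (-2.23), Gpr17 (-1.81), Slitrk6 (-1.71), Cnn2 (-0.99), Pdgfra (-0.94), Per3 (-0.71), Gm14399 (-0.55) and Aldh1l2 (-0.37). Stat2 rose in both, by 0.91 in untreated and 2.51 in IFN-gamma cells.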

How the results depend on the processing

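For untreated 8 h against untreated 1 h (1049 genes called), a 1.5-fold minimum left 229, library numbers 1 to 20 alone gave 125, numbers 21 to 40 alone 182, no filter on low counts 611, and only the groups compared in the fit 1913. Leaving out 1 library gave 538 (without 8 h replicate 4) to 1108, with 588 without 1 h replicate 1 and 615 without 1 h replicate 2. For IFN-gamma 8 h against IFN-gamma 1 h (5236), the 1.5-fold minimum gave 2223 and the library ranges 2815 and 3405, and leaving out 1 library gave 4571 to 4841. For the difference of the 1 h to 8 h changes, IFN-gamma minus untreated (1874), these were 1188, 839 and 1031, and 1584 to 1784. For untreated 48 h against untreated 24 h (6158), the 1.5-fold minimum gave 2315, numbers 1 to 20 gave 610, only the groups compared 3848, and leaving out 1 library 4787 to 7125. The causes were not tested, apart from the fewer libraries or added fold minimum that define a setting. The isoform table called 620 genes higher and 84 lower, or 88.1% higher, against 68.8% in the gene table.

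Of 82 genes picked by the naming rule and called in untreated 8 h against untreated 1 h, 8 were called under every setting, and over all settings 1059 of 1393 calls were kept, 334 were lost and 0 changed sign. Mbp, not called, ranged from -0.12 (without 8 h replicate 4) to 0.38 when 1 library was left out. No paired analysis was possible because the labels give no replicate numbers, and those used here follow accession order. With the range of library numbers as a block, 1259 genes were called. Genes of few reads, such as Egr4, are limited by depth.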

Other observations

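Transcripts of genes that rose had a median GC content of 46.6% and a median length of 3852 bases, those of genes that fell 51.4% and 3194 bases, and those of all genes tested 49.5% and 3302 bases. With genes ordered by GC content into 5 equal bins, from lowest to highest, 8.21, 4.70, 4.27, 3.94 and 2.78% of genes rose. In the same order, 1.159, 1.656, 2.517, 2.584 and 2.915% fell. These are descriptions across genes, which are not independent replicates, with no test.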
